A study of Macaca mulatta with 14 samples.

Results

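The genes described here encode the acid hydrolases of the lysosome, several proteins of its membrane and the subunits of the vacuolar proton pump, measured in blood mononuclear cells of rhesus macaques on a control diet or on long-term calorie restriction (CR). Members were taken by gene symbol: 31 named lysosomal genes, and every gene on the array whose symbol begins with ATP6V or ATP6AP, which added 14. Of these 45 genes, 37 had at least 1 probe set assigned to a single gene, with 68 probe sets in all, out of 14132 genes so assigned and 52865 probe sets on the array. The genes CTSB, CTSC, GLB1, GUSB, PSAP, LAMP1, SCARB2 and MCOLN1 had no single-gene probe set under those symbols and were not analysed here. Pump genes were taken only from symbols present on the array. Subunits with no single-gene probe set, ATP6V1A, ATP6V0D1 and ATP6AP2 among them, are therefore not among the 14. Each gene was read from its brightest probe set over all arrays.

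The study compared 7 male macaques fed a control diet with 7 male macaques on calorie restriction, with 1 array of peripheral blood mononuclear cells (PBMC; lymphocytes, monocytes and the few other cells that co-purify with them) per animal. The control animals were 24 to 27 years old and the CR animals 24 to 30 years old. The period of restriction is stated as 16 years; that statement also mentions the control animals, while the diet label marks only the CR group as restricted, and the labels were followed. All animals were old, no young group was part of the comparison, and neither the degree of restriction nor the feeding state at blood collection is given in the sources used here. Arrays are called by group and replicate number, as in control 1 or CR 6.

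Lysosomes degrade proteins, glycans and lipids delivered by endocytosis, phagocytosis and autophagy. Their hydrolases work at acid pH, which the vacuolar proton pump maintains by using ATP to move protons into the lumen, and their heavily glycosylated membrane proteins line the boundary. Among blood mononuclear cells the pathway is known to be most developed in monocytes, the precursors of tissue macrophages, in which cathepsins also process antigens for presentation.

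Of the 37 genes, 31 were bright enough to be tested, which meant lying among the 50% of probe sets with the highest mean log2 signal: 8 of 14 pump genes, all 7 cathepsins on the array, all 13 other hydrolases and cofactors, and all 3 membrane proteins. The 6 genes below that limit were ATP6V0A4, ATP6V0D2, ATP6V1B1, ATP6V1C2, ATP6V1E2 and ATP6V1G3, mostly subunit forms known from kidney, testis or osteoclasts rather than from blood cells. Their mean log2 signals lay between 4.63 and 5.59, each had between 2 and 8 of 14 arrays at the floor of 16 intensity units (4 on the log2 scale), and none was tested. ATP6V0D2, the subunit form of osteoclasts and some macrophages, ran from 4 to 5.97 with a median of 4 in the control arrays and from 4 to 6.60 with a median of 5.59 in the CR arrays. In 6 of 7 CR arrays it lay above the control median, but 5 of 14 arrays were at the floor and the values carry no test.

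No lysosomal gene differed between the diets past the threshold. In the limma comparison of CR with control, 0 of 31 genes had an adjusted p under 0.05, against 0 of 26383 probe sets tested (0% called). The smallest adjusted p over all probe sets was 0.771 and that of a lysosomal gene was 0.918, for TPP1. At an unadjusted limma p under 0.05 the count was again 0 of 31, where 5.12% of all tested probe sets passed. In 17 of 31 genes (54.8%) the mean was lower in CR, compared with 51.9% of all tested probe sets, and the median difference was -0.04 on the log2 scale against -0.01 over all tested probe sets. The 2 groups overlapped for every lysosomal gene, and 0.0834% of all tested probe sets had groups that did not overlap. The standard errors of the 31 differences ran from 0.13 to 0.58, so differences of the size seen here were not detectable with 7 animals per group.

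Before the single genes, the cell types in the samples were checked through marker lists. Tested markers of T cells (5), B cells (6), NK and cytotoxic cells (12) and monocytes (12) were all above the floor on all arrays. All 12 monocyte markers had a lower mean in the restricted animals (median difference -0.45), although none passed the limma threshold. The summed monocyte marker signal, as log2, ran from 15.23 to 16.55 in the control arrays and from 13.19 to 16.18 in the CR arrays. The difference ran the same way for 7 of 7 neutrophil, 3 of 4 dendritic cell and 6 of 9 platelet markers, and the other way for 10 of 12 NK and cytotoxic, 4 of 5 T cell and 6 of 6 B cell markers, while plasma cell markers were split 3 to 3 and the only tested erythroid marker was higher in CR. A monocyte score, the mean of the 12 markers after centring each on its own average, was 0.26 ± 0.53 (SD, n = 7) in control and -0.26 ± 0.87 (SD, n = 7) in CR, with the lowest values in CR 6 (-1.43), CR 7 (-1.22), control 1 (-0.85) and CR 3 (-0.70) and all other arrays between 0.005 and 0.83. In RNA from a mixed sample, fewer cells of a type and less RNA per cell cannot be told apart. Control 1 also had the largest excess of 3' over 5' signal for GAPDH, at 7.504 on the log2 scale, where the other 13 arrays lay between 5.06 and 6.87. It also had the lowest median correlation with the other arrays (0.879). By diet the GAPDH excess was 6.14 ± 0.83 (SD, n = 7) in control and 6.58 ± 0.31 (SD, n = 7) in CR. The excess was at least 5.06 on every array, so it was not confined to control 1. The bearing of the GAPDH excess on the diet differences, and on the slopes on the monocyte score given below, was not tested.

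**Figure D1:**
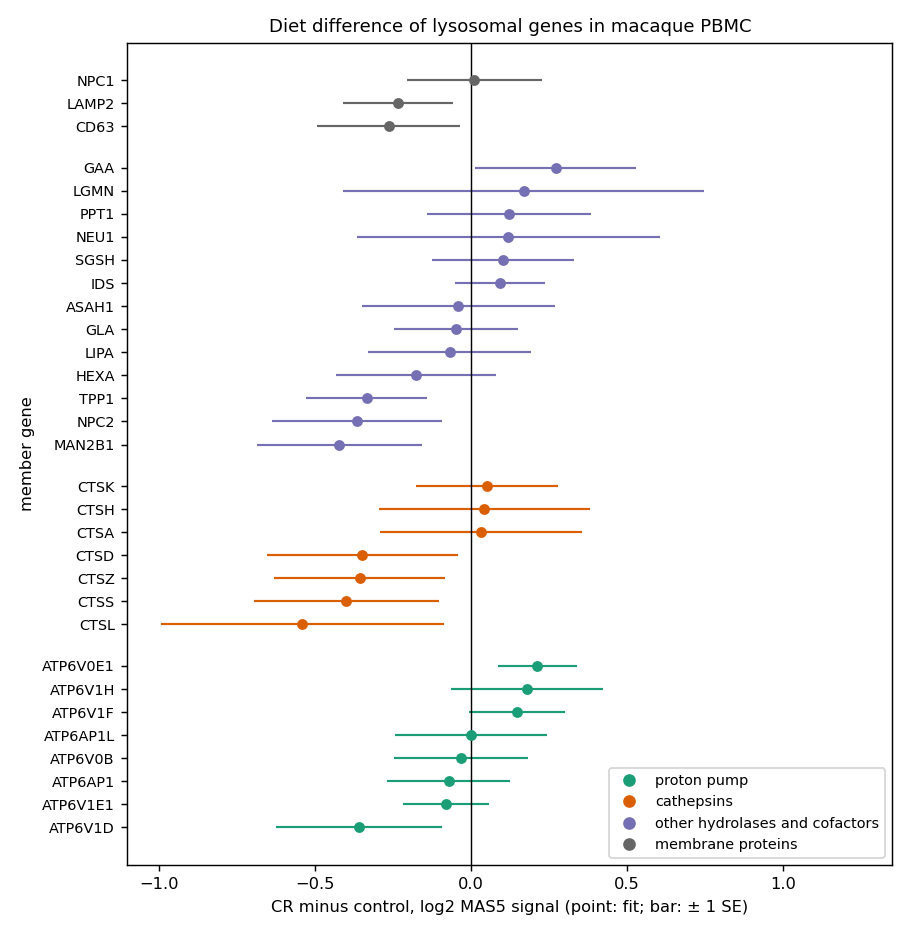
CR minus control difference of each of the 31 tested lysosomal genes, on the log2 scale of the array signal; points are the limma estimates, bars are 1 standard error to each side, and colours mark the 4 classes. The differences lie between -0.54 (CTSL) and 0.27 (GAA), 17 of them below 0.

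The proton pump genes showed the smallest shift of the 4 classes. Of 8 tested genes, 4 were higher and 4 lower in CR, and the class median was -0.01. Subunits such as ATP6V1A and ATP6V0D1 were not measured, so this median does not describe the whole pump. The pump consists of a membrane-embedded part that carries protons and a peripheral part that hydrolyses ATP. ATP6V0E1, a small subunit of the membrane part, ran from 14.35 to 14.70 with a median of 14.49 in the control arrays and from 14.35 to 15.03 with a median of 14.63 in the CR arrays. In 6 of 7 CR arrays it lay above the control median, and only CR 1, the lowest of all arrays, did not. The difference was 0.21 ± 0.13 (SE; limma adjusted p = 0.92), a fold of 1.16, and its other 2 probe sets gave 0.06 and -0.13.

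Among the other pump subunits, ATP6V0B, a proton-carrying proteolipid, ran from 11.63 to 12.34 (median 12.21) in control and from 11.40 to 12.82 (median 12.25) in CR, so that the CR arrays held both its lowest and its highest value; the difference was -0.03 ± 0.21 (SE). ATP6V1D, part of the central shaft, had the lowest difference of the class, with 7.26 to 8.25 (median 7.78) in control and 6.61 to 7.97 (median 7.49) in CR. Its difference was -0.36 ± 0.27 (SE; limma adjusted p = 0.924). ATP6V1F, another shaft subunit, was 0.15 ± 0.15 (SE) higher in CR, and ATP6V1H, the regulatory subunit that links the 2 parts, 0.18 ± 0.24 (SE) higher. The second probe set of ATP6V1H went the other way, at -0.22, and its control mean held the low value of control 1 (9.52, where the next control array was at 11.10). Without control 1 the ATP6V1H difference was -0.07. ATP6V1E1, of the peripheral stalk, ATP6AP1, an accessory protein of pump assembly, and ATP6AP1L differed by -0.08, -0.07 and 0.0007.

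Cathepsins, the main lysosomal proteases, had the lowest class median. Of 7 tested genes, 4 had differences between -0.54 and -0.35 and 3 between 0.03 and 0.05. The class median, that of CTSD, was -0.35, and it was 0.01 without CR 6 and CR 7, the arrays with the lowest monocyte score. CTSL, a cysteine endopeptidase, ran from 10.17 to 12.02 with a median of 10.80 in the control arrays and from 8.65 to 11.98 with a median of 10.05 in the CR arrays. The lowest CR value was in CR 6, while CR 1 lay close to the highest control array. The CTSL difference, -0.54 ± 0.45 (SE; limma adjusted p = 0.931), came with an SD of 1.29 among the CR arrays against 0.57 among the controls.

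CTSS, the cysteine protease that trims the invariant chain of MHC class II, ran from 12.55 to 15.03 (median 13.55) in control and from 12.84 to 14.02 (median 12.96) in CR. Only 2 of 7 CR arrays exceeded the control median, but both the lowest and the highest value belonged to control arrays. Its difference was -0.40 ± 0.30 (SE; limma adjusted p = 0.924), and the other 3 probe sets of the gene had differences between -0.38 and -0.19. CTSD, the main aspartic protease, ran from 10.48 to 12.01 (median 11.70) in control and from 10.15 to 11.88 (median 11.22) in CR, a difference of -0.35 ± 0.31 (SE), and its dimmer probe set gave -0.18. CTSZ, a carboxypeptidase, was 8.99 to 10.23 (median 9.94) in control and 8.55 to 10.27 (median 9.31) in CR, a difference of -0.36 ± 0.27 (SE). For both CTSD and CTSZ, 2 of 7 CR arrays lay above the control median.

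The other 3 cathepsins had nearly equal means. CTSH, an aminopeptidase, was at 12.82 ± 0.67 (SD, n = 7) in control and 12.86 ± 0.79 (SD, n = 7) in CR. CTSK, a collagen-degrading protease best known from osteoclasts, was at 11.27 ± 0.43 in control and 11.33 ± 0.47 in CR. CTSA, a serine carboxypeptidase that stabilises the sialidase NEU1, was at 11.74 ± 0.61 in control and 11.77 ± 0.77 in CR. The 3 differences changed sign when control 1 was left out, to -0.16, -0.07 and -0.02, and no cathepsin difference passed the threshold in either case.

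**Figure D2:**
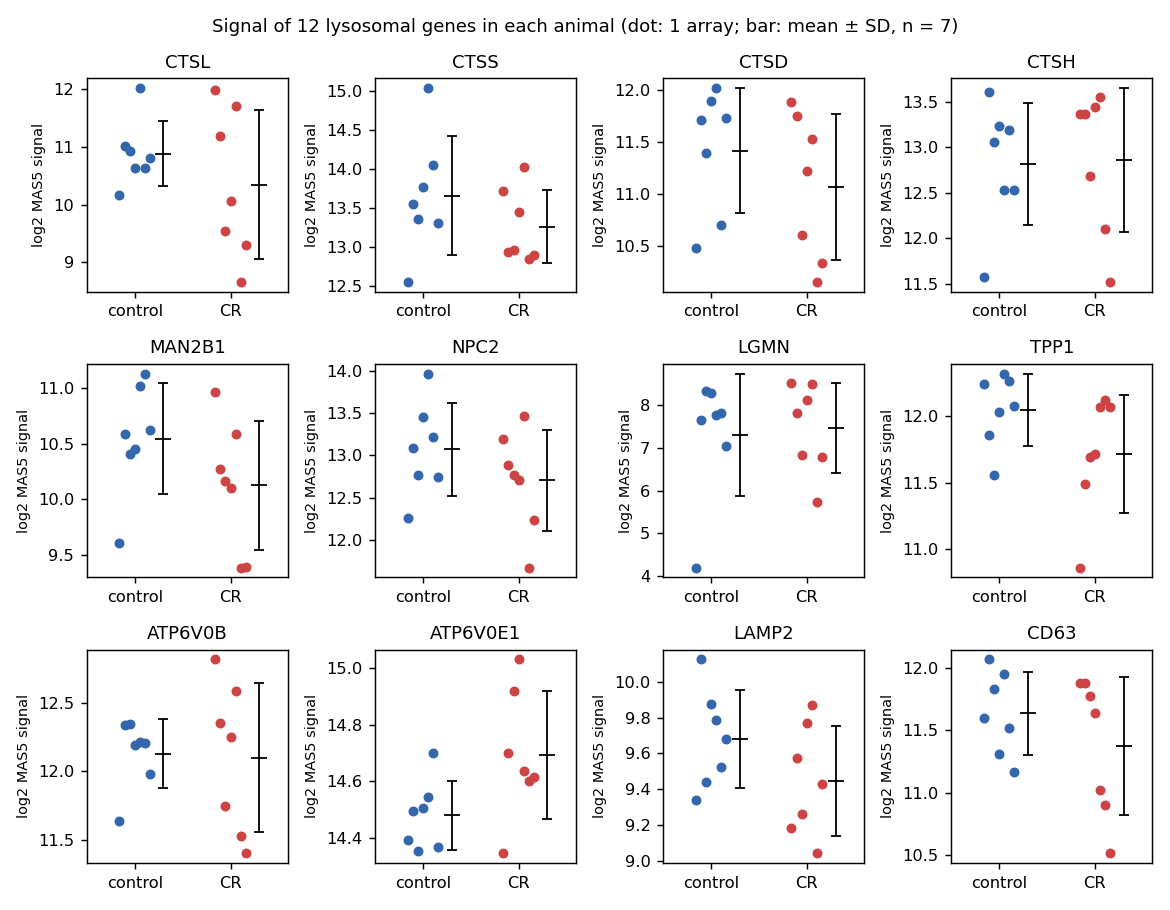
Log2 array signal of 12 lysosomal genes in each animal; each dot is 1 array, and the black bars give the mean and SD of the 7 arrays of a diet. The groups overlap in every panel, and CTSL spreads over 8.65 to 11.98 in CR against 10.17 to 12.02 in control.

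The other hydrolases and their cofactors were split, with 6 of 13 higher and 7 lower and a median of -0.04. TPP1, a tripeptidyl peptidase, ran from 11.56 to 12.32 with a median of 12.08 in the control arrays and from 10.86 to 12.12 with a median of 11.72 in the CR arrays. Only 1 CR array lay above the control median, and the lowest of all was CR 1. The TPP1 difference was -0.33 ± 0.19 (SE; limma unadjusted p = 0.103, adjusted p = 0.918), a fold of 0.793, and the 2 dimmer tested probe sets gave -0.21 and -0.17. MAN2B1, the lysosomal alpha-mannosidase, ran from 9.60 to 11.13 (median 10.58) in control and from 9.38 to 10.96 (median 10.16) in CR, a difference of -0.42 ± 0.26 (SE; limma adjusted p = 0.924). NPC2, which hands cholesterol to NPC1 for export, ran from 12.26 to 13.97 (median 13.09) in control and from 11.67 to 13.46 (median 12.77) in CR, a difference of -0.37 ± 0.27 (SE; limma adjusted p = 0.924).

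On the higher side, GAA, the acid alpha-glucosidase that breaks down glycogen, ran from 7.33 to 8.48 (median 7.76) in control and from 7.55 to 8.96 (median 8.11) in CR. In 5 of 7 CR arrays it was above the control median, and the difference was 0.27 ± 0.26 (SE; limma adjusted p = 0.934). LGMN, the asparaginyl endopeptidase that activates several cathepsins, had the widest range of all tested members: 4.20 to 8.33 (median 7.78) in control and 5.73 to 8.51 (median 7.83) in CR. Its lowest array was control 1, and its difference, 0.17 ± 0.58 (SE), became -0.35 without that array. PPT1, a palmitoyl-protein thioesterase, was 0.12 ± 0.26 (SE) higher in CR and -0.07 without control 1.

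The other 7 hydrolases had differences between -0.18 and 0.12. IDS and SGSH, sulfatases of heparan sulfate breakdown, differed by 0.09 ± 0.14 (SE) and 0.10 ± 0.23 (SE). The sialidase NEU1 differed by 0.12 ± 0.49 (SE) and the hexosaminidase subunit HEXA by -0.18 ± 0.26 (SE). LIPA, the acid lipase of cholesteryl esters, ASAH1, the acid ceramidase, and GLA, the alpha-galactosidase, differed by -0.07, -0.04 and -0.05. ASAH1 exceeded its control median in 1 of 7 CR arrays despite that near-equal mean, since control 1, at 12.35, was the lowest of all 14 arrays. The dimmer tested probe sets of ASAH1 gave -0.21 and -0.54, and that of GLA gave 0.01.

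Of the 3 membrane proteins, 2 were lower in CR. LAMP2, an abundant lysosomal membrane glycoprotein that also serves chaperone-mediated autophagy, ran from 9.34 to 10.13 (median 9.68) in control and from 9.04 to 9.87 (median 9.43) in CR. Its difference was -0.23 ± 0.18 (SE; limma adjusted p = 0.924), while a dimmer probe set gave 0.13. CD63, a tetraspanin of late endosomes, secretory granules and exosomes, ran from 11.17 to 12.07 (median 11.60) in control and from 10.51 to 11.88 (median 11.64) in CR. The CD63 medians were thus nearly equal, and the difference in means, -0.26 ± 0.23 (SE), came with 3 CR arrays between 10.51 and 11.02. NPC1, the cholesterol exporter, was at 10.36 ± 0.49 (SD, n = 7) in control and 10.38 ± 0.32 (SD, n = 7) in CR.

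Across classes the low arrays were few and recurrent. The lowest array of a member was control 1 for 10 genes, CR 6 for 8 and CR 7 for 8, which together made 26 of 31, and CR 1 was the highest array for 7. A class value per array, the mean of its members after centring each gene, was -0.66 in control 1, -0.85 in CR 6 and -0.91 in CR 7 for the cathepsins, where all other arrays lay between -0.38 and 0.76. The corresponding values of the pump genes were -0.30, -0.32 and -0.14, and over all arrays the pump value had an SD of 0.17 in control and 0.20 in CR, compared with 0.38 and 0.64 for the cathepsins. The median difference of all members was -0.19 without control 1, 0.03 without CR 6 and 0.01 without CR 7, so its direction depended on single arrays.

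The 3 low arrays were those with the lowest monocyte score, and the lysosomal genes were next examined against that score. The limma model held diet and the score, so that its slope gives the change in log2 signal per unit of score among animals of the same diet, and no member gene is part of the score. Of 31 members, 12 rose with the score (38.7%), against 2.68% of all tested probe sets, and 0 members fell, against 1.55%. At an unadjusted limma p under 0.05, 21 of 31 rose, against 9.32%. The slope was positive for 27 of 31 members, compared with 42.3% of all tested probe sets, and the median slope was 0.47 against -0.06.

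**Figure D3:**
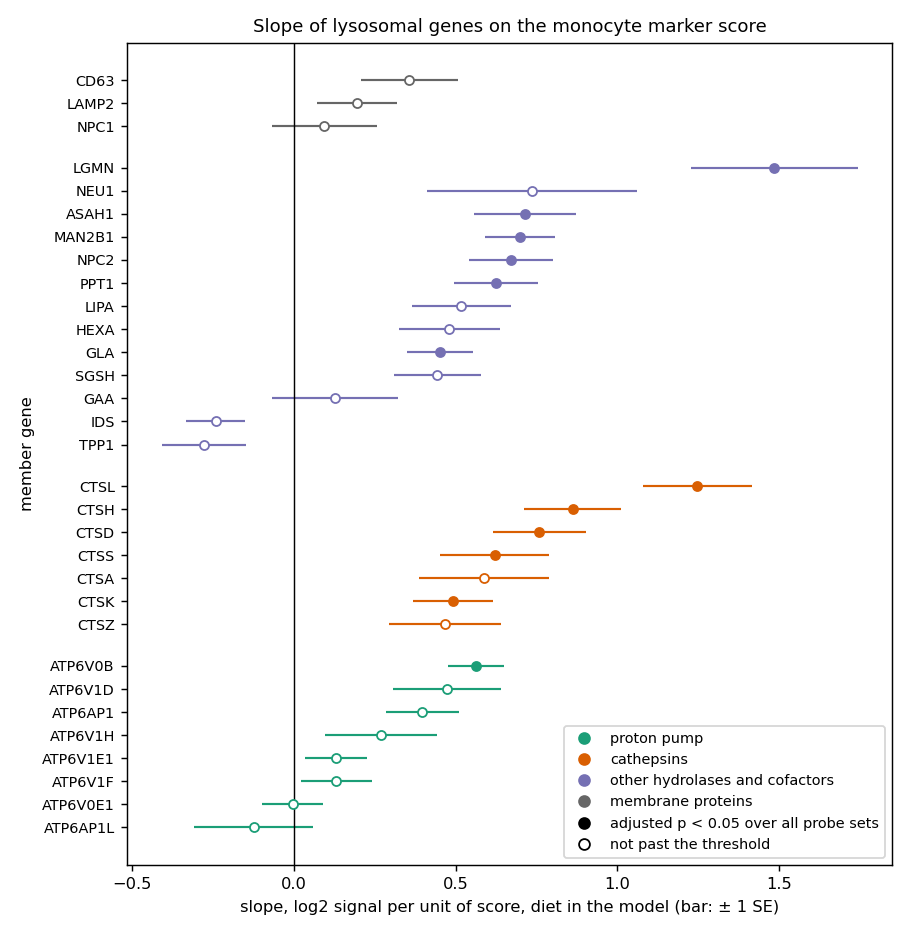
Slope of each tested lysosomal gene on the monocyte score, in log2 signal per unit of score with diet in the limma model; bars are 1 standard error to each side, and filled points passed an adjusted p of 0.05 over all probe sets. The 12 filled points are 5 cathepsins, 6 other hydrolases and cofactors, and the pump gene ATP6V0B, with slopes from 0.45 (GLA) to 1.49 (LGMN).

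Among the cathepsins 5 of 7 rose with the monocyte score. CTSL had a slope of 1.25 ± 0.17 (SE; limma adjusted p = 0.000961), CTSH 0.86 ± 0.15 (SE; limma adjusted p = 0.00439) and CTSD 0.76 ± 0.14 (SE; limma adjusted p = 0.00734). CTSS, at 0.62 ± 0.17 (SE; limma adjusted p = 0.0464), and CTSK, at 0.49 ± 0.12 (SE; limma adjusted p = 0.0327), passed more narrowly. With 1 array left out in turn, CTSS lost its call for 11 of 14 arrays (control 1, 3, 4, 6 and 7, and every CR array but CR 2) and CTSK for 4 (control 1, CR 1, CR 6 and CR 7), while CTSL, CTSH and CTSD kept theirs. With the score of CD14, FCN1 and VCAN, CTSL was the only cathepsin called. CTSA and CTSZ had slopes of 0.59 and 0.47 that did not pass. CTSH was also called on its dimmer probe set, with a slope of 1.48, whereas of the other 3 CTSS probe sets only 1 was called and the dimmer CTSD and CTSK probe sets were not.

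Among the other hydrolases and cofactors 6 of 13 rose with the score. LGMN had the steepest slope of all members, 1.49 ± 0.26 (SE; limma adjusted p = 0.0041), and MAN2B1 the smallest adjusted p of the class, with 0.70 ± 0.11 (SE; limma adjusted p = 0.00182). ASAH1 (0.71), NPC2 (0.67), PPT1 (0.62) and GLA (0.45) were also called, ASAH1 and GLA on all of their tested probe sets. LIPA, HEXA, SGSH and NEU1 had slopes of 0.52, 0.48, 0.44 and 0.74 that did not pass, although the dimmer tested probe set of NEU1 was called, with a slope of 0.67 (limma adjusted p = 0.0136). TPP1 and IDS had negative slopes that did not pass either, -0.28 ± 0.13 (SE; limma adjusted p = 0.241) and -0.24 ± 0.09 (SE; limma adjusted p = 0.14), and the GAA slope was 0.13. The second brightest TPP1 probe set had a slope of 0.26 and the third -0.14. NPC2 lost its call without CR 6, and PPT1 without control 1 or CR 6. ASAH1 and GLA also lost theirs without control 1 (limma adjusted p = 0.0676 and 0.0721). For ASAH1 and GLA the fits with another single array left out, such as CR 6, were not read gene by gene. Further losses are possible there.

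Of the pump genes only ATP6V0B was called, at 0.56 ± 0.09 (SE; limma adjusted p = 0.00196), and its other probe set had a slope of -0.01. ATP6V1D and ATP6AP1 had slopes of 0.47 and 0.40 with limma adjusted p of 0.116 and 0.0562, and the ATP6V0E1 slope was -0.004 ± 0.09 (SE). None of the membrane proteins was called, with slopes of 0.36 for CD63, 0.20 for LAMP2 and 0.09 for NPC1. Whether the slopes differed between the classes was not tested.

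**Figure D4:**
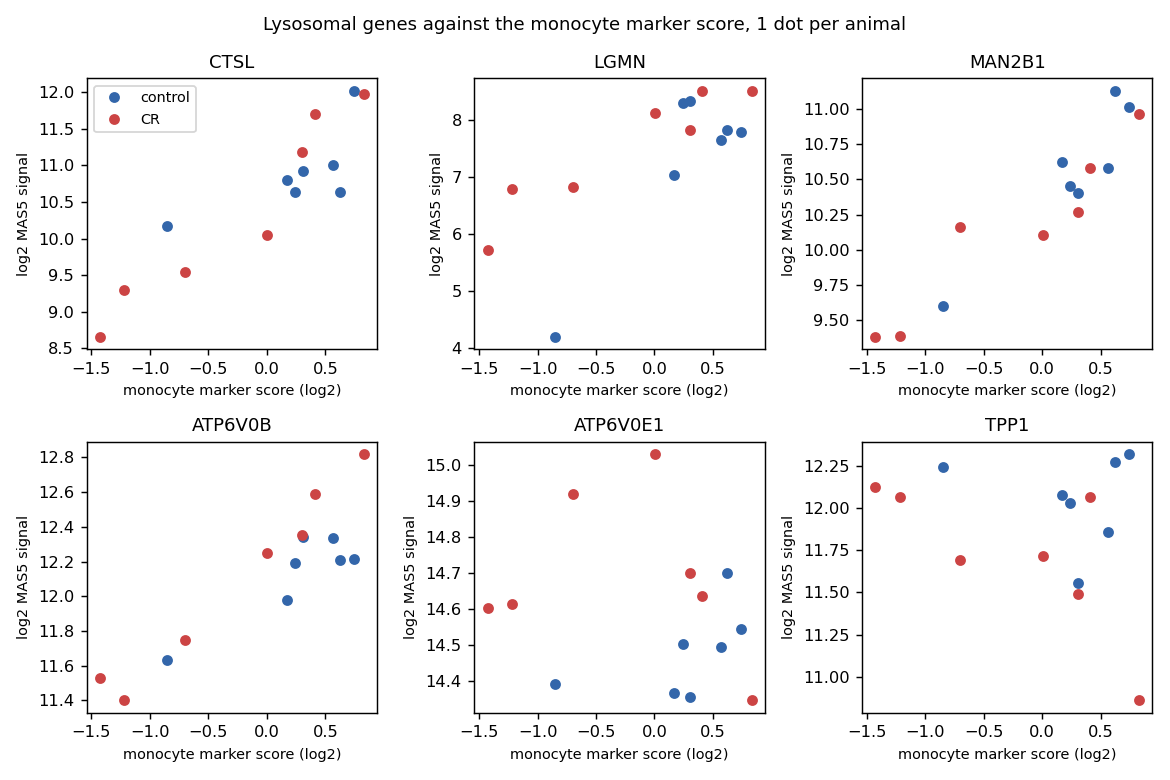
Log2 array signal of 6 lysosomal genes against the monocyte score, with 1 dot per animal coloured by diet. CTSL, LGMN, MAN2B1 and ATP6V0B each have at least 3 of their 4 lowest values on the 4 arrays with a score of -0.70 or less, while ATP6V0E1 and TPP1 have their lowest value on CR 1, the array with the highest score.

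The calls depended on the arrays with little monocyte signal, and the size of several slopes did too. Without CR 6 and CR 7, the 2 arrays farthest from the median score, 0 of 31 members were called by limma (0.171% of all tested probe sets), and the smallest adjusted p was 0.0588 for LGMN. Of the slopes, 27 of 31 were positive, with a median of 0.57, and with 1.82 ± 0.36 (SE) for LGMN and 1.19 ± 0.25 (SE) for CTSL, and 17 members had a positive slope with an unadjusted p under 0.05 against 6.76% of all tested probe sets. Without all 4 arrays of the lowest scores, 0 members and 0 probe sets were called, and 24 of 31 slopes were positive with a median of 0.34. In that fit 5 members had a positive slope with an unadjusted limma p under 0.05, against 3.21%. Among the 12 members called on all arrays, slopes were then smaller for ATP6V0B (0.51), LGMN (0.36), PPT1 (0.34), GLA (0.32), CTSD (0.26), CTSH (0.03) and ASAH1 (0.0009). They were larger for CTSL (1.89), CTSS (1.22), CTSK (1.15), MAN2B1 (1.04) and NPC2 (0.91). Their standard errors ran from 0.29 to 0.55. Leaving out CR 6 alone left 7 members called (1.38% of all tested probe sets), all among the 12, and leaving out control 1 left 8, 7 of them among the 12 (1.9% of all tested probe sets), or 7 (1.83%) when CR 2 was left out with it. A score of CD14, FCN1 and VCAN alone called 6 members (1.47%). Of these, 4 were among the 12, and ATP6AP1 and SGSH were called only there.

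Scores of other cell types were fitted the same way. For the NK and cytotoxic, T cell and B cell scores, 0 members were called by limma (0%, 0.00379% and 0.00379% of all tested probe sets with a positive slope, and 0%, 0.00758% and 0% with a negative one), with a median member slope of -0.45 on the NK and cytotoxic score. For the platelet score 1 member was called, CTSH with a slope of 0.58 (limma adjusted p = 0.0372; 1.01% of all tested probe sets). The platelet score was also lowest in CR 6 (-2.09) and CR 7 (-1.12). With the platelet score as a further term in the monocyte model, 0 members were called (0.0758%), and the smallest adjusted p was 0.0579 for CTSL. Of the slopes, 28 of 31 were positive, with a median of 0.46, and with 1.31 ± 0.24 (SE) for CTSL and 0.82 ± 0.15 (SE) for MAN2B1, and 15 members had an unadjusted p under 0.05 against 4.88%. The part of monocytes, platelets and the dendritic cell and neutrophil markers that were low on the same arrays was not separated further.

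With the monocyte score in the diet model, 27 of 31 members had a higher CR minus control difference than without it. The median moved from -0.04 to 0.13. This count restates the slopes and is no further result. The score averaged lower in CR, so every member with a positive slope moves up by construction. A direction below 0 was left for 11 members and for 54.2% of all tested probe sets. The sign changed from lower to higher for 8 members and from higher to lower for 2, and 0 members were called (smallest limma adjusted p 0.638). CTSL went from -0.54 to 0.10, CTSD from -0.35 to 0.04 and MAN2B1 from -0.42 to -0.06. TPP1 went from -0.33 to -0.48, and LGMN from 0.17 to 0.93. The class medians were then 0.17 for the pump, 0.10 for the cathepsins, 0.20 for the other hydrolases and cofactors, and -0.08 for the membrane proteins. ATP6V0E1 kept its difference, at 0.21 in both models.

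**Figure D5:**
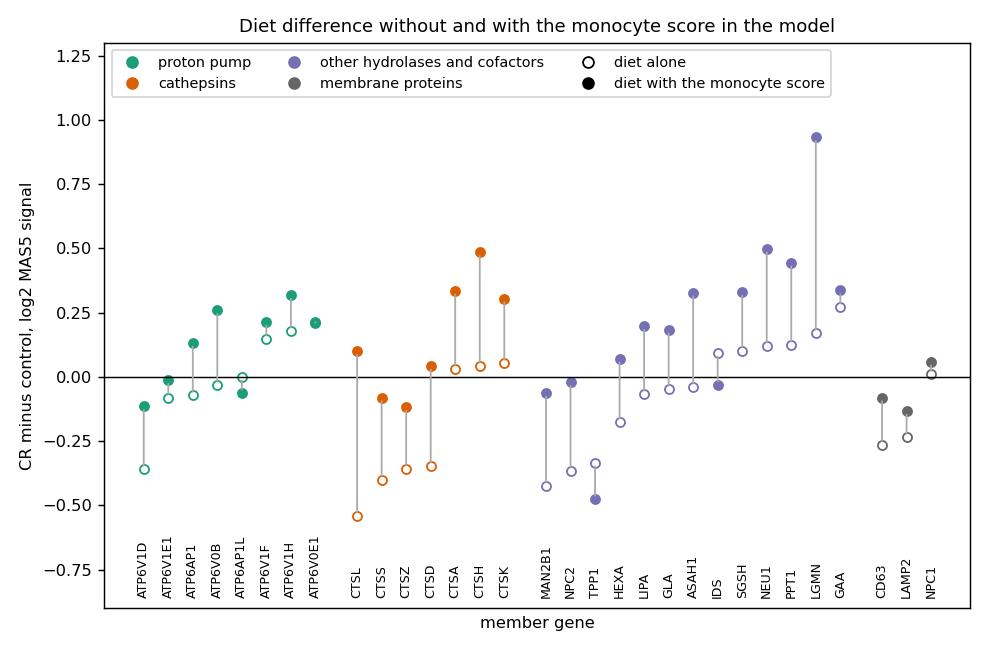
CR minus control difference of each tested lysosomal gene, on the log2 scale, from diet alone (open) and from diet with the monocyte score (filled); colours mark the 4 classes. In 27 of 31 genes the filled point lies above the open one. The exceptions are the genes with a negative slope on the score, TPP1, IDS, ATP6AP1L and ATP6V0E1.

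Other genes of the lysosome were read from lists chosen by function, and 0 of their tested genes passed the limma threshold for diet (0% of all probe sets). Of 8 tested partners and assembly factors of the pump, 3 were higher and 5 lower in CR. TMEM199, an assembly factor, differed by 0.27 ± 0.18 (SE), DMXL2, a regulator of pump assembly, by -0.38 ± 0.32 (SE), and TCIRG1, the membrane subunit of osteoclasts and leukocytes, by 0.08. Of 20 further hydrolases 11 were higher and 9 lower. CTSO differed by -0.67 ± 0.31 (SE; limma unadjusted p = 0.0417, adjusted p = 0.918) and CTSW, a cathepsin of NK and cytotoxic T cells, by 0.57 ± 0.32 (SE). Of 19 further membrane proteins 6 were higher and 13 lower, with CD68, a macrophage and monocyte marker, at -0.53 ± 0.31 (SE) and LITAF at 0.27 ± 0.21 (SE).

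Of 7 genes that sort hydrolases to the lysosome, 3 were higher and 4 lower in CR, and both mannose 6-phosphate receptors were on the lower side. M6PR, the cation-dependent receptor, differed by -0.42 ± 0.17 (SE; limma unadjusted p = 0.0249, adjusted p = 0.918) and IGF2R, the cation-independent one, by -0.34 ± 0.22 (SE). Of 14 regulators 7 were higher and 7 lower. TFEC, a transcription factor of the MiT family found in myeloid cells, differed by -0.85 ± 0.25 (SE; limma unadjusted p = 0.00345, adjusted p = 0.918), and LAMTOR2, part of the complex that anchors mTORC1 to lysosomes, by 0.49 ± 0.20 (SE). TFEB and TFE3, the better known activators of lysosomal genes, differed by 0.10 and -0.05. All 4 tested inhibitors of lysosomal or leukocyte proteases were higher in CR, with CST7, the cystatin of cytotoxic cells and monocytes, at 1.16 ± 0.35 (SE; limma adjusted p = 0.918) and CSTB at 0.34 ± 0.29 (SE).

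Against the monocyte score, 3 of 20 further hydrolases rose (PRCP, NAAA and IFI30), as did 3 of 19 further membrane proteins (CD68, SLC29A3 and TPCN2) and 1 of 4 inhibitors (CSTA), and DMXL1, of the pump partners, fell, with 2.68% and 1.55% of all tested probe sets called on either side. None of the sorting genes or regulators passed, and the TFEC slope was 0.45 ± 0.16 (SE; limma adjusted p = 0.108).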

How the data were processed

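Affymetrix arrays of PBMC RNA from 14 animals (7 control, 7 CR) were used. The deposited values are linear intensities, 1 per probe set, made with MAS5 per the submitters' processing notes; no software version or scan batch is given. The trimmed mean of every array was 500 units, so no further scaling was applied. Values were floored at 16, log2-transformed and, after leaving out 99 AFFX controls, the 26383 probe sets with the highest mean (50%) were tested with limma 3.58.1 (lmFit, eBayes with trend; R 4.3.3), two-sided, with Benjamini-Hochberg adjustment. The script was checked on simulated data. There 38% of changed genes were recovered at a log2 diet difference of 1, and 89.5% at a difference of 2. Genes came from the platform's annotation: 24969 probe sets had 1 symbol, 361 several and 27535 none; 66 of 68 member probe sets matched a RefSeq entry, with 0 symbols differing. Levels of different probe sets were not compared. Intensities give no read depth; the number of arrays limits precision.

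Scores were means of centred log2 marker values, with 9 marker lists in all. The members, the marker and gene lists and the tests were chosen with earlier results of these data known. Genes named were, per class, those with the smallest p for diet on either side and for the monocyte score, plus preset members. Preset members with no single-gene probe set, ATP6V1A, ATP6V0D1 and ATP6AP2 included, are named only as absent. In each related list, the 2 smallest for diet were named. TCIRG1, TFEB, TFE3, DMXL1 and the related genes called on the monocyte score were added after their values were seen. The labels call the arrays of a diet biological replicates.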

Additional observations from a re-analysis of the deposited data

Results flagged for a closer look

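Dixon's test was applied to 62 sets of 7 arrays (25 named genes and 6 summary measures in each diet). In 8 of them an array lay far from its neighbour for the range of the group. Chance gives about 1 in 20 for a single set. The sets are not independent, since the class values contain named genes and the same array recurs. The 8 can therefore not be set against that rate. Control 1 accounted for 7 of the 8, always as the lowest array. Its log2 signal was 9.52 for ATP6V1H (next control array 11.10), 11.65 for LIPA (next 13.05) and 4.20 for LGMN (next 7.04). Its class value, the mean of centred genes, was -0.66 for the cathepsins (next 0.03), -0.91 for the other hydrolases and cofactors (next -0.01) and -0.31 for the membrane proteins (next 0.03), and its monocyte score was -0.85 (next 0.17). Control 2 had the highest control value of ATP6V1F, 12.56 (next 11.97).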

How the results depend on the processing

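Under all 15 planned or added alternatives for diet and with each array left out, limma (and a linear model without moderation) called 0 members and 0 probe sets. The pump median moved by more than its SD among arrays, to 0.18 without CR 6 and CR 7 and 0.17 with the monocyte score. The cathepsin median changed sign in the same settings, from -0.35 to 0.0093 and 0.10, a smaller move than its SD among arrays of 0.52. Leaving out 1 array at a time gave -0.19 to 0.03 for all members. Fitting the replicate number as a block left 0 diet calls and 13 members called on the monocyte score, 10 of them among the 12. In the main fits the replicate numbers were not treated as pairs. Same-numbered arrays had correlations of -0.11 to 0.18, with 4 of 7 over 0.1, which cannot show whether the animals were matched.

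On the monocyte score 1117 probe sets and 12 members were called. With 1 array left out the counts ran from 483 to 1529 probe sets and from 7 to 13 members. They were 622 probe sets with no signal filter, 50 and 0 members without CR 6 and CR 7 (the 2 arrays farthest from the median score), 0 and 0 without the 4 arrays of the lowest score, 657 and 7 without control 1 and CR 2, 596 and 6 with the score of CD14, FCN1 and VCAN, and 21 and 0 with the platelet score added. The causes were not tested. The omissions of control 1 with CR 2, and of the 4 arrays, were chosen after seeing the data.

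Differences of named members that changed sign, none of them past the threshold, included those of CTSL, CTSS, CTSD, NPC2, GAA and CD63, among the farthest from 0 in their classes. Without CR 6 and CR 7 they were 0.19 (ATP6AP1), 0.22 (ATP6V0B), 0.0093 (CTSL), -0.011 (IDS), 0.017 (LIPA), -0.018 (NPC1) and 0.0032 (CD63). With the NK and cytotoxic score they were 0.054 (ATP6V0B), -0.31 (CTSA), 0.10 (CTSS), -0.096 (GAA) and 0.13 (NPC2), and with the monocyte score 0.13 (ATP6AP1), 0.26 (ATP6V0B), 0.042 (CTSD), 0.10 (CTSL), -0.031 (IDS) and 0.20 (LIPA). With array weights they were -0.028 (CTSA), -0.094 (CTSH), -0.064 (CTSK), -0.17 (LGMN) and -0.13 (NPC1). Without control 1 and CR 2 they were -0.12 (ATP6V1H), -0.19 (CTSA), -0.25 (CTSH), -0.034 (CTSK), -0.13 (PPT1), -0.41 (LGMN) and -0.13 (NPC1). Centring arrays gave -0.0085 for NPC1, and averaging a gene's probe sets gave -0.019 (ATP6V1H) and -0.070 (CTSK).

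With 1 array left out, differences ran from -0.072 to 0.25 (ATP6V1H), -0.15 to 0.19 (CTSA), -0.16 to 0.27 (CTSH), -0.099 to 0.15 (CTSK), -0.069 to 0.27 (PPT1), -0.35 to 0.46 (LGMN), -0.12 to 0.090 (NPC1), -0.15 to 0.086 (ATP6V0B), -0.30 to 0.037 (LIPA) and -0.14 to 0.049 (ATP6AP1). Uncalled slopes on the monocyte score ran from -0.057 to 0.39 (ATP6V1H), -0.097 to 0.22 (NPC1), -0.032 to 0.087 (ATP6V0E1) and -0.044 to 0.32 (GAA). Other slopes that changed sign were -0.019 (ATP6V1F without CR 6 and CR 7), 0.011, 0.14, 0.053 and 0.0077 (ATP6V0E1 with array weights, centred arrays, averaged probe sets, and the score of CD14, FCN1 and VCAN), -0.10 (ATP6V1H) and -0.11 (NPC1) without control 1 and CR 2, -0.061 (NPC1 with the score of CD14, FCN1 and VCAN), and -0.024 (ATP6V1H), -0.30 (LAMP2) and -0.53 (NPC1) without the 4 arrays. With 7 arrays per diet and no cell counts, small differences and the share of each cell type were beyond these data.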
